A study of Mus musculus with 4 samples.

Results

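Cytotoxic lymphocytes kill by releasing granules onto a target cell. The 10 genes described here encode parts of that system, along with a receptor, a cytokine and transcription factors of the same cells. They are the granzymes Gzma, Gzmb, Gzmk and Gzmm, the pore protein Prf1, the granule membrane protein Nkg7, the adhesion receptor Crtam, the cytokine Ifng, and the transcription factors Tbx21 and Eomes. They were taken by symbol from the 31053 genes of the deposited count matrices, and all 10 were found. Their unique molecular identifiers (UMIs, 1 per captured RNA molecule) were summed per library in natural killer (NK)-like cells and in CD8, conventional CD4 and regulatory T-like cells.

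The cells came from the stromal vascular fraction, the non-adipocyte cells that collagenase releases, of the fourth inguinal white fat depot, which also holds the mammary gland. The C57BL/6 mice were 8 weeks old, and had spent 24 h either at 4 °C (cold, 2 libraries) or at room temperature (2 libraries). The sources used here do not give the sex, the number of animals per library, or the room temperature in degrees. Nor do they say whether each library is an independent set of mice. The tests below therefore cover library-to-library spread alone, which may be technical. That spread is estimated in part from the other genes tested. A standard error or p can therefore be smaller than a gene's own values would give. All groups share the digestion at 37 °C and the lysis of red cells.

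NK cells carry granzyme and perforin RNA before they meet a target. Naive T cells lack most of these RNAs and gain them on becoming effector or memory cells. The T-box factors T-bet (Tbx21) and Eomesodermin (Eomes) drive this programme in both lineages, together with Runx factors and with STAT factors downstream of the interleukin-2, interleukin-12 and interleukin-15 receptors. In fat, interferon gamma from NK and T cells acts on macrophages, adipocytes and their progenitors.

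The promoter windows of the 4 members whose levels are described most fully below are printed first, because Gzma, Prf1 and Ifng passed the test in NK-like cells and Gzmb, from the same granule, did not. Each window is the 250 bases before the start of the gene in RefSeq on GRCm38.p6, read 5′ to 3′ on the gene's own strand. Gzma lies at chr13:113100982-113101231 on the minus strand, Prf1 at chr10:61297586-61297835 on the plus strand, Gzmb at chr14:56262335-56262584 on the minus strand and Ifng at chr10:118440796-118441045 on the plus strand. Capitals mark matches to 3 short motifs, searched on both strands: the T-box half-site (GTGTGA or TCACAC), the Runx motif (TGTGGT or ACCACA) and the STAT motif (TTCNNNGAA).
Gzma: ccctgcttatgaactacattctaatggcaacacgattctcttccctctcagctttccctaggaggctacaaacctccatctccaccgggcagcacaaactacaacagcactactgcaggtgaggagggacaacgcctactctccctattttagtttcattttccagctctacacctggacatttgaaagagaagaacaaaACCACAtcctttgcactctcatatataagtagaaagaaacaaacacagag
Prf1: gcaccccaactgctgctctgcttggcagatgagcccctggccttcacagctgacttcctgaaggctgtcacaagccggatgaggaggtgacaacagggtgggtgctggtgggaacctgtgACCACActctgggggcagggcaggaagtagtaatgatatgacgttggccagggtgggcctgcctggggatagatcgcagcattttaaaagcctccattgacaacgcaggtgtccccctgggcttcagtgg
Gzmb: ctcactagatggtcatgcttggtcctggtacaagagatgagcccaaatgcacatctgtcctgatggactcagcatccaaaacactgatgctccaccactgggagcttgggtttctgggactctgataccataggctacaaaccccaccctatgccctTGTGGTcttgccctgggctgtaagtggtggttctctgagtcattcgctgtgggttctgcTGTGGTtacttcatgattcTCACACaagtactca
Ifng: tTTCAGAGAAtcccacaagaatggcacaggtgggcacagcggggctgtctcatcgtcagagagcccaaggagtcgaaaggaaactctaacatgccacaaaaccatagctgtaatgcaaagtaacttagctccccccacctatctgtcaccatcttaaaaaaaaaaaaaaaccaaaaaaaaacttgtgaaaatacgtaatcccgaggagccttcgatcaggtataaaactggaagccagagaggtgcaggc

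The Gzma window held 1 match, a Runx motif 50 to 45 bases before the start. The Prf1 window held 1 Runx match, 130 to 125 bases before the start. The Gzmb window held 3, with Runx matches at 93 to 88 and 34 to 29 bases and a T-box half-site at 15 to 10 bases before the start. Ifng had 1 STAT match, 249 to 241 bases before its start. Of the other members with a window, Nkg7 held all 3 motifs and Gzmk 2 T-box half-sites. Gzmm has 2 windows in the table, of which one held a Runx and a STAT match and the other a T-box half-site. The windows of Tbx21 and Eomes held none. No matches overlapped. Windows of this length are available for 9 of the 10 members, and Crtam is named only. Over 32851 promoter windows, 14.0% held a Runx match, 12.3% a T-box half-site and 7.02% a STAT match, so single matches are common, and a match says only that the letters occur there.

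The 4 libraries held 3871 to 6339 cell barcodes and 35198164 to 55160902 UMIs, and any pair of libraries shared 5 to 10 barcodes. After filters, 15197 cells were used. Cells were clustered without the 10 members and named from marker genes, which gave 342 NK-like, 1322 CD8 T-like, 325 conventional CD4 T-like and 227 regulatory T-like cells. In the order cold 1, cold 2, room temperature 1, room temperature 2, which all sets of 4 values below follow, the NK-like class held 38, 75, 83 and 146 cells. The CD8 class held 573, 249, 288 and 212 cells, the CD4 class 215, 29, 48 and 33, and the regulatory class 50, 51, 45 and 81. The 8 NK markers that named the NK-like class were all detected in each library there, with a summed level of 3720, 4671, 4081 and 4370 counts per 1000000 UMIs of the class (CPM), and the ranges of the 2 groups overlapped. The CD8 class did not draw on the same clusters in each group: a naive-type cluster led by Cd8b1 and Ccr9 gave 426 of the 573 cells in cold 1, and another naive-type cluster led by Cd8b1 and Bend4 gave 141 and 108 cells at room temperature.

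NK-like cells held 84.6% of all Gzma UMIs, 58.2% of Gzmb and 60.1% of Prf1, and CD8 T-like cells held 5.97%, 15.3% and 21.9%. Nkg7 was divided otherwise, with 43.0% in CD8 T-like and 32.8% in NK-like cells. Crtam (46.7%) and Gzmm (53.0%) had their largest share in CD8 T-like cells, while for Ifng (40.0%), Tbx21 (38.0%) and Eomes (38.5%) it lay in NK-like cells. Gzmk gave only 67 UMIs in all cells, 44.8% of them in a cluster of dividing lymphocytes. Since the classes are clusters, these differences between them are a description with no test.

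**Figure D1:**
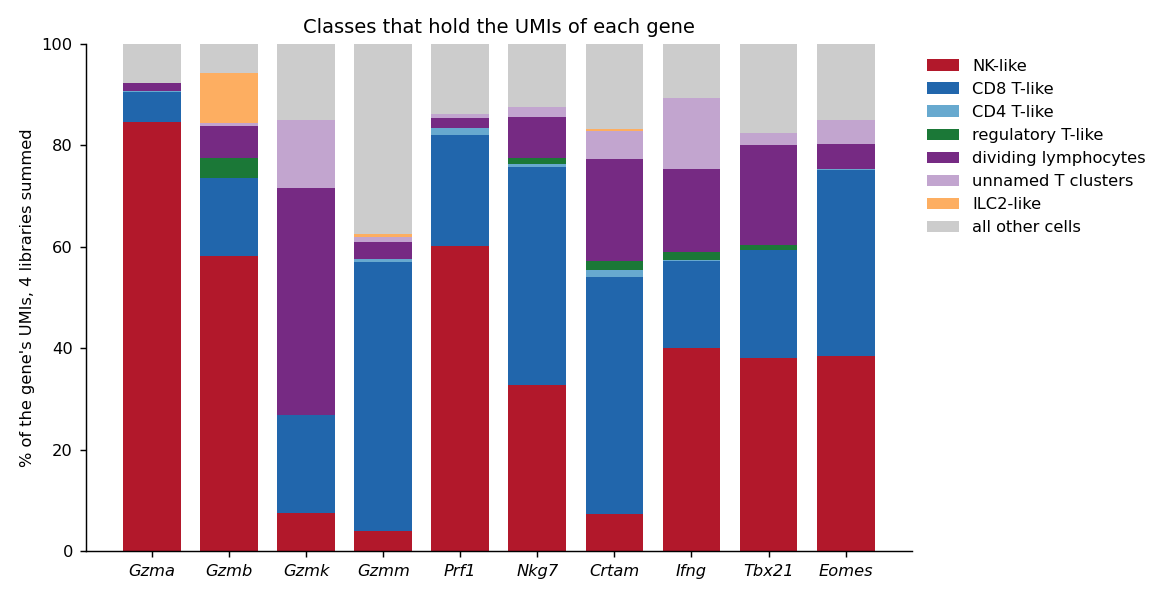
Share of each gene's UMIs held by each class of cells, over the 4 libraries; each bar is 1 gene, stacked by class to 100%. NK-like cells hold 84.6% of the Gzma UMIs but 32.8% of those of Nkg7.

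By the share of cells with at least 1 UMI, Gzma was found in 88.6% of NK-like cells (median 3177.5 UMIs per cell), 3.63% of CD8 T-like cells (5449.5 UMIs), 1.23% of CD4 T-like cells (4044 UMIs) and 1.76% of regulatory T-like cells (4437 UMIs). In B cells, which should lack Gzma, it was found in 0.418% of 1196 cells (median 2432.5 UMIs), and in fibroblasts in 0.730% of 2877 cells (median 9287 UMIs). With each cell thinned to 2000 UMIs, the Gzma shares were 86.2% in NK-like, 1.94% in CD8, 0.647% in CD4 and 0.943% in regulatory T-like cells, 0.236% in B cells and 0.111% in fibroblasts.

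Nkg7 was found in 99.1% of NK-like and 86.4% of CD8 T-like cells (98% and 63.8% thinned), against 1.09% of B cells and 2.29% of fibroblasts (0.473% and 0.626% thinned). Prf1 was found in 73.7% of NK-like and 18.4% of CD8 T-like cells (60.3% and 7.29% thinned), and Gzmb in 66.7% and 2.65% (60.6% and 1.63% thinned). Eomes was found in 44.4% of NK-like and 12% of CD8 T-like cells, Tbx21 in 36.5% and 6.43%, and Ifng in 28.9% and 4.08%. The B cell shares were 0.334% for Prf1, 0 of 1196 cells for Gzmb, 0.0836% for Eomes, 1.25% for Tbx21 and 0.251% for Ifng. Crtam went the other way, with 11.8% of CD8 T-like and 6.43% of NK-like cells, and so did Gzmm, with 8.32% and 3.8%. The CD8 T-like cells were deeper (median 5449.5 against 3177.5 UMIs). Per UMI sequenced, Crtam was nearly equal, with 179 of 7849191 UMIs in CD8 T-like and 28 of 1243023 in NK-like cells. Thinned, Gzmm was at 2.33% and 2.69%, so the order of its 2 shares changed with thinning. The 0 UMIs of Gzmb in B cells allow a level of up to 0.703 CPM, a limit for counting error only.

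**Figure D2:**
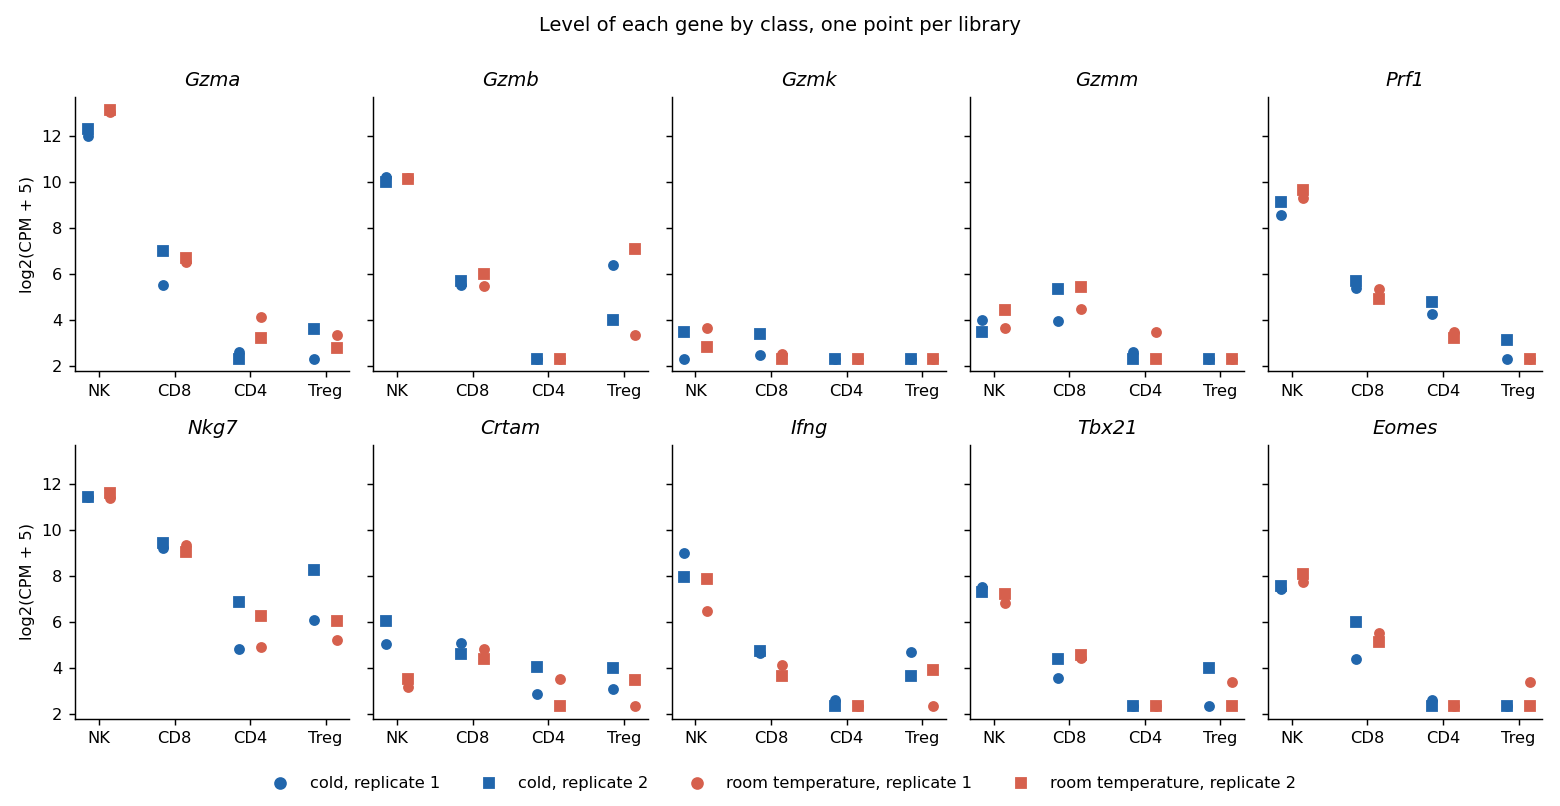
Level of each of the 10 genes as log2(CPM + 5) in NK-like, CD8, conventional CD4 and regulatory T-like cells, with 1 point per library, coloured by temperature. Gzma in NK-like cells shows the 2 cold points below the 2 room-temperature points.

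Gzma was lower in NK-like cells of the cold libraries. Granzyme A is a tryptase released from granules (ENSMUSG00000023132, chr13:113093825-113100981, minus strand). Its level was 4059 and 5114 CPM in the cold libraries and 8446 and 9134 CPM at room temperature (mean 4587 ± 747 against 8790 ± 486, SD, n = 2 each), from 742, 1638, 2202 and 4377 UMIs. Both cold libraries lay below both room-temperature libraries. Gzma fell by 0.89 on the log2 scale (standard error, SE, 0.09) with an adjusted p of 2.90e-10 in edgeR's quasi-likelihood test with Benjamini-Hochberg adjustment. It was called under each of the 11 other settings and leave-outs run. Of the 10 members 7 had enough counts to be tested in NK-like cells, and 3 passed an adjusted p of 0.05: Gzma and Prf1 fell and Ifng rose. Over all 3995 genes tested in the class 3.58% passed, 1.85% higher and 1.73% lower in the cold.

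Both the share of NK-like cells with Gzma and the amount per cell were lower in the cold. A UMI of Gzma was found in 84.2%, 81.3%, 89.2% and 93.2% of NK-like cells, and in 83.8%, 79.4%, 85.3% and 91.1% at the thinned depth. The mean over all NK-like cells was 19.5, 21.8, 26.5 and 30 UMIs per cell. The median NK-like cell gave 0.367% and 0.497% of its UMIs to Gzma in the cold and 0.924% and 0.970% at room temperature. NK-like cells from the cold were deeper (median 4637.5 and 3533 UMIs against 2915 and 2972), and they made up 0.967% and 2.52% of all cells against 1.59% and 4.76%, with overlapping ranges. The part of that depth in the Gzma value was not tested.

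**Figure D3:**
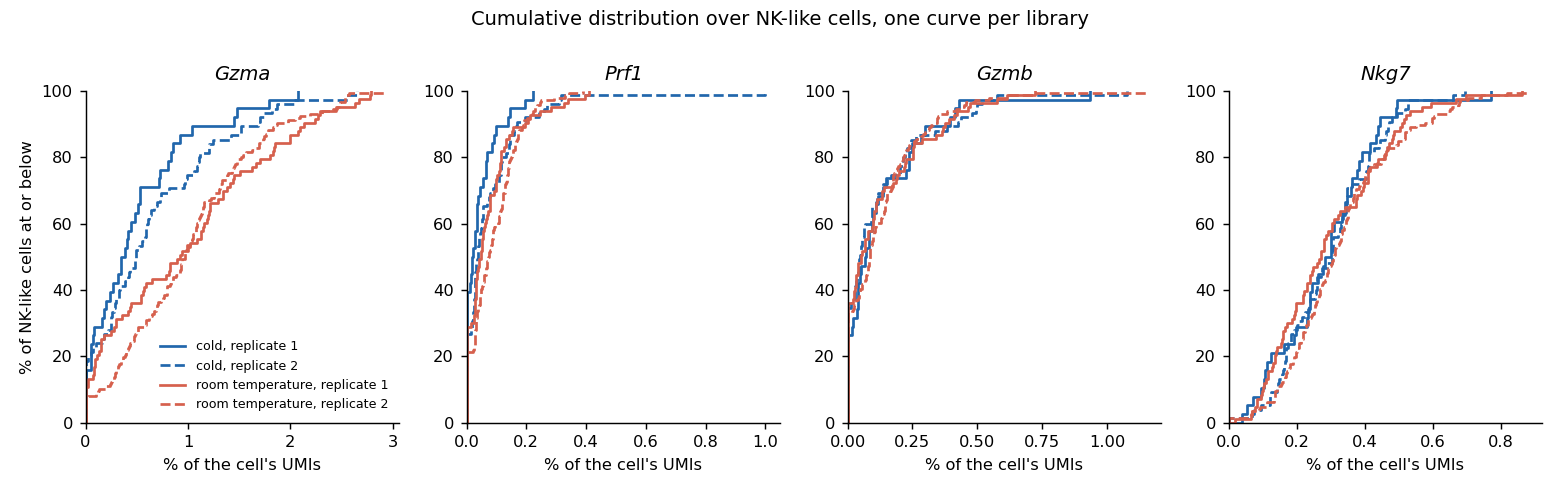
Cumulative share of NK-like cells (y axis) by the percent of a cell's UMIs given to Gzma, Prf1, Gzmb or Nkg7 (x axis), with 1 line per library. The Gzma lines of the 2 cold libraries lie left of the room-temperature lines, with medians of 0.367% and 0.497% against 0.924% and 0.970%.

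Perforin 1 (Prf1, ENSMUSG00000037202, chr10:61297833-61304680, plus strand) forms the pores through which granzymes enter the target. Its level in NK-like cells was 372, 553, 633 and 810 CPM, from 68, 177, 165 and 388 UMIs, so the cold libraries were lower, with a gap between cold 2 and room temperature 1 that is smaller than the gap within either group. The change was −0.58 on the log2 scale (SE 0.18, adjusted p 0.0496 in edgeR's quasi-likelihood test), just past the threshold. That call was lost with DESeq2 (−0.59, adjusted p 0.41), with doublets kept (−0.55, adjusted p 0.18), with finer clusters (−0.56, adjusted p 0.14), with a gate on single cells by marker (−0.49, adjusted p 0.24) and without cold 1 (−0.38, adjusted p 0.47) or room temperature 2 (−0.39, adjusted p 0.64), while every setting kept the direction. Prf1 was found in 60.5%, 73.3%, 71.1% and 78.8% of NK-like cells, and the ranges of the groups overlapped.

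Granzyme B (Gzmb, ENSMUSG00000015437, chr14:56258838-56262260, minus strand), the granzyme that cleaves caspases, did not follow Gzma. Its level was 1187, 1012, 1174 and 1125 CPM, and both room-temperature values lay between the cold ones. The fitted change was −0.03 (SE 0.14, adjusted p 0.956, edgeR). Nkg7 (ENSMUSG00000004612, chr7:43437073-43438249, plus strand), needed for granules to release their content, was at 2779, 2773, 2696 and 3132 CPM, with a change of −0.03 (SE 0.11, adjusted p 0.937, edgeR). The groups overlapped for both genes. Cells with UMIs of Gzma, Gzmb and Prf1 together made up 50.0%, 57.3%, 50.6% and 56.8% of NK-like cells, and cells with none of the 3 made up 7.89%, 13.3%, 6.02% and 4.79%.

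Gzmm (ENSMUSG00000054206, chr10:79689020-79695261, plus strand) and Gzmk (ENSMUSG00000042385, chr13:113171608-113225908, minus strand, 70.6 kb from Gzma) were too low to test in NK-like cells. Gzmm gave 2, 2, 2 and 8 UMIs there, and Gzmk 0, 2, 2 and 1. Neither count separates the groups.

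Ifng (ENSMUSG00000055170, chr10:118441046-118445892, plus strand), which encodes interferon gamma, went the other way from Gzma. Its level in NK-like cells was 503, 237, 84.4 and 225 CPM, from 92, 76, 22 and 108 UMIs. Cold 1 stood highest, room temperature 1 lowest, and cold 2 and room temperature 2 were close together. Ifng rose by 1.11 on the log2 scale (SE 0.26, adjusted p 0.0057 in edgeR's quasi-likelihood test). The call did not hold without cold 1 (0.52, adjusted p 0.44) or without room temperature 1 (0.67, adjusted p 0.19). It was also lost with DESeq2 (1.28, adjusted p 0.97), with doublets kept (1.23, adjusted p 0.064) and with finer clusters (1.14, adjusted p 0.081).

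A few cells held much of this Ifng RNA. In cold 1, 3 cells with at least 10 UMIs gave 49 of the 92 UMIs (53.3%), and in room temperature 2, 2 such cells gave 35 of 108 (32.4%). Cold 2 had 1 such cell, with 10 UMIs, and room temperature 1 had none. The share of NK-like cells with an Ifng UMI, on which such cells weigh little, was 52.6%, 37.3%, 18.1% and 24.7%, and 37.8%, 26.5%, 16.2% and 21.0% at the thinned depth. On both measures the cold libraries were above the room-temperature libraries. Of the NK-like cells with an Ifng UMI, 80.0%, 78.6%, 93.3% and 86.1% also held Gzma.

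The 2 T-box factors moved by less than the test could call. Tbx21 (ENSMUSG00000001444, chr11:97098071-97115331, minus strand) was at 175, 153, 107 and 144 CPM, with the cold libraries higher and a change of 0.37 (SE 0.25, adjusted p 0.526, edgeR). Eomes (ENSMUSG00000032446, chr9:118478212-118486132, plus strand) was at 164, 181, 203 and 267 CPM, with the cold libraries lower and a change of −0.42 (SE 0.23, adjusted p 0.39, edgeR). Thinned to 1 depth, Tbx21 was found in 32.4%, 33.8%, 17.6% and 18.5% of NK-like cells and Eomes in 18.9%, 26.5%, 36.8% and 41.9%. In both, the groups did not overlap at this depth, and they lay in opposite order. Without thinning, Tbx21 was found in 50.0%, 45.3%, 28.9% and 32.9% of NK-like cells, again with no overlap. Eomes was found in 14 of 38, 32 of 75, 35 of 83 and 71 of 146 cells, where the groups overlapped. Cells with either factor made up 71.1%, 68.0%, 62.7% and 63.0% of the class.

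Crtam (ENSMUSG00000032021, chr9:40969691-41004628, minus strand) encodes a receptor for the adhesion molecule Cadm1 that appears on activated NK and CD8 T cells. It gave 5 and 19 UMIs in cold NK-like cells and 1 and 3 at room temperature, which is 27.3, 59.3, 3.84 and 6.26 CPM. It was left out of the test by the filter on low counts. Summed over the libraries of a group, 24 against 4 UMIs is a ratio of 8.82 per UMI sequenced, with an exact 95% interval of 3.03 to 35.0 that covers counting error only. With no filter Crtam was tested and rose by 2.99 (adjusted p 0.0012, edgeR). The thinned shares of cells (2.70%, 5.88%, 1.47% and 0.806%) were near the level of 1 or a few cells per library.

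**Figure D4:**
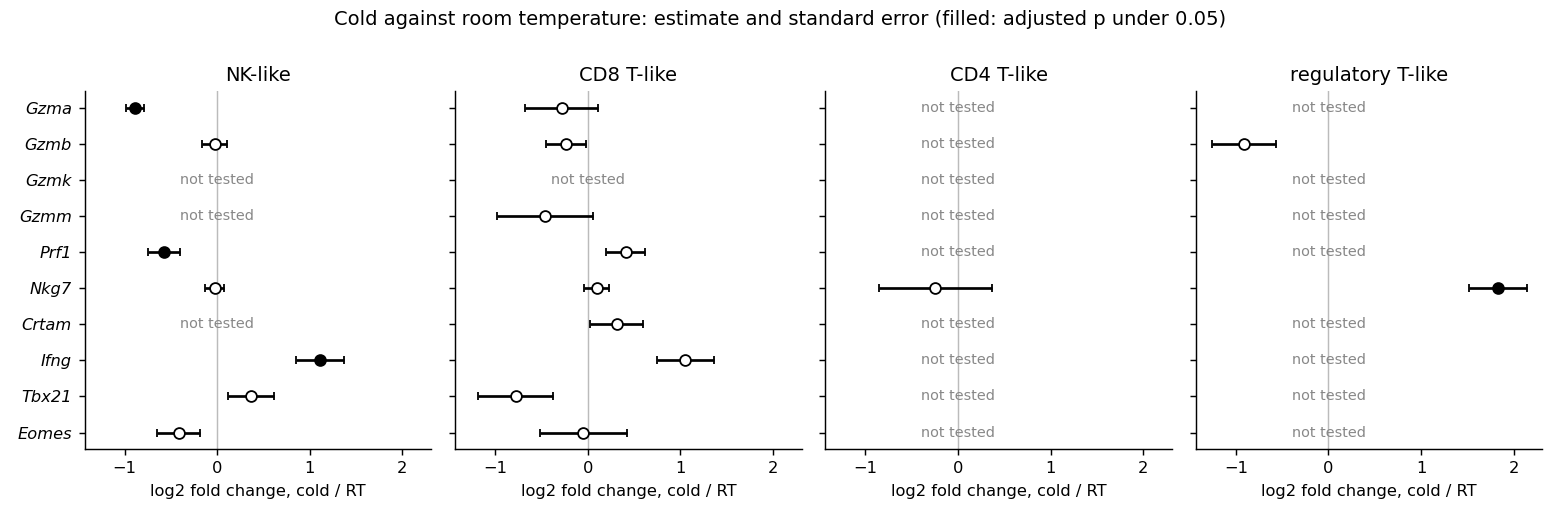
Change of each gene from room temperature to cold as log2 fold change ± SE (edgeR) in the 4 classes; filled points have an adjusted p under 0.05, and genes with too few counts are marked as not tested. The filled points are Gzma, Prf1 and Ifng in NK-like cells and Nkg7 in regulatory T-like cells.

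Markers of other cells were measured in the same NK-like sums. The 5 CD8 T markers summed to 312, 347, 88.2 and 246 CPM, higher in the cold, and 2 of them were at 0 in room temperature 1. Macrophage and monocyte markers summed to 1329, 856, 1273 and 818 CPM, and markers of the related innate lymphoid cells of type 1 to 104, 178, 253 and 157 CPM. An RNA of the CD3 complex was found in 21.1%, 28.0%, 14.5% and 19.2% of NK-like cells. In the cells without one, Gzma was at 5082, 6175, 9476 and 10405 CPM, and the groups again did not overlap. Prf1 was at 443, 623, 706 and 894 CPM there, and in the same order. Ifng was at 544, 202, 81.5 and 222 CPM, so in cells without CD3 RNA the groups overlapped for Ifng.

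In CD8 T-like cells 9 members were tested and 0 passed, where 2.31% of 8233 genes did. At an unadjusted p under 0.05 the count was 1 member (Ifng) of the 9, beside 1449 of the 8233 genes. DESeq2 called 0 members, giving no adjusted p for 4 of them. Ifng was at 19.6, 21.7, 12.3 and 7.29 CPM, from 60, 40, 16 and 12 UMIs, with the cold libraries higher. In cold 1, 1 cell held 24 of the 60 UMIs, and in cold 2, 2 cells held 27 of the 40. The share of cells with an Ifng UMI was 4.01%, 5.22%, 3.13% and 4.25%. Thinned, it was 1.43%, 1.65%, 1.78% and 0.481%, and the groups overlapped on both measures. The change of Ifng was 1.05 (SE 0.31, adjusted p 0.123, edgeR). It was called with no filter on low counts (1.07, adjusted p 0.026) and with finer clusters (1.51, adjusted p 0.042). With doublets kept it was 0.13 (adjusted p 0.94). In cold 2, 34 of the 40 UMIs lay in a cluster of 67 cells led by interferon-induced genes such as Ifit3, 60 of them from that library. Without this cluster the change was 0.58 (adjusted p 0.59).

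Gzma in CD8 T-like cells was at 40.5, 125, 87.6 and 99.6 CPM, and Gzmb at 41.8, 46.8, 40.0 and 58.9 CPM, with overlapping groups for both. The changes were −0.28 (SE 0.39) for Gzma and −0.23 (SE 0.22) for Gzmb. The Gzma value rested on few cells, since 10 cells with at least 10 UMIs held 562 of the 632 UMIs (88.9%), and in cold 1 a single cell held 119 of 124. For Gzmb 10 such cells held 312 of 363 UMIs. Of the 10 cells rich in Gzma, 9 had an RNA of the CD3 complex and 6 one of Cd8a or Cd8b1, while 5 had a UMI of the NK receptor Ncr1 and 9 one of Gzmb. Among the 1274 CD8 T-like cells without Gzma, 6 had Ncr1 and 22 had Gzmb. The NK markers Klrb1c and Klre1 were each found in 5 of the 10 cells, and in 40 and 83 of the 1274. Any marker of the NK list was found in 7 of the 10 and in 947 of the 1274, so the list as a whole does not set the 10 cells apart.

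Nkg7, the most widely found member in the class, was at 589, 678, 631 and 520 CPM (0.10, SE 0.13). Prf1 was at 37.6, 46.8, 36.1 and 25.5 CPM, with both cold libraries above both others (0.41, SE 0.21, adjusted p 0.34, edgeR). Crtam was at 28.7, 19.0, 23.1 and 15.8 CPM (0.31, SE 0.29) and Gzmm at 10.5, 36.4, 17.7 and 38.3 CPM (−0.46, SE 0.52). Of the factors, Tbx21 was at 6.53, 15.8, 16.1 and 18.2 CPM (−0.78, SE 0.40, adjusted p 0.35, edgeR) and Eomes at 16.0, 57.6, 40.7 and 29.1 CPM (−0.05, SE 0.47). Cold 1 was the lowest library for Gzmm, Tbx21 and Eomes. Gzmk gave 2, 10, 1 and 0 UMIs and was not tested.

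The 2 cold libraries differed in the mix of CD8 T-like cells. Memory-type cells made up 20.1% of the class in cold 1 and 59.4% in cold 2, against 42.0% and 45.8% at room temperature. They came from 2 clusters led by Ccl5 and Ly6c2 and from the interferon-led cluster, which had 3 of 8 memory-type and 5 of 6 naive-type markers on. Without the interferon-led cluster the shares were 19.8%, 46.6%, 41.6% and 45.0%, so that cold 2 lay near the room-temperature libraries and cold 1 alone stood apart. The 2 other clusters held 20, 24, 96 and 92 cells and 93, 64, 23 and 2 cells, so they too were unequally divided between the temperatures. Most members were at higher levels in memory-type than in naive-type cells: over all libraries Gzma was at 201 against 1.89 CPM, Gzmb at 115 against 1.68, Ifng at 38.1 against 2.10, Gzmm at 55.6 against 2.73 and Tbx21 at 28.1 against 2.73. The gap was smaller for Nkg7 (784 against 484), Eomes (51.1 against 20.6) and Prf1 (49.8 against 28.6), and Crtam was at 22.3 against 23.1 CPM. In memory-type cells alone Ifng was at 70.6, 37.8, 26.8 and 14.0 CPM (1.38, adjusted p 0.15, edgeR). Without the interferon-led cluster, from which 34 of the 39 UMIs of cold 2 came, it was at 71.4, 7.70, 27.2 and 11.4 CPM. Cold 2 was then the lowest library, and cold 1 the highest. Gzma in the same cells was at 166, 257, 192 and 193 CPM. Libraries were left out only for the whole CD8 class, with its unequal mix. With cold 2 left out, the changes there were −1.24 for Gzma, −1.49 for Gzmm, −1.43 for Tbx21 and −1.13 for Eomes. With cold 1 left out, Eomes was at 0.68 in the whole class.

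The class of conventional CD4 T-like cells held almost none of these RNAs. Its clusters were naive-type, each with 6 of 6 naive-type and 0 of 8 memory-type markers on. Clusters with Cd4 in 50.5% and 50.0% of cells, and 3 and 6 of 8 memory-type markers on, were left unnamed and lie outside the class. The values below therefore do not cover memory-type CD4 T cells. Gzmb, Gzmk and Tbx21 had 0 UMIs in the class in all 4 libraries, which allows up to 2.04 CPM, and Ifng and Eomes had 1 UMI each. Gzma had 4 UMIs, Gzmm 2 and Crtam 5. Prf1 gave 13, 4, 1 and 1 UMIs (14.3, 22.4, 6.22 and 4.39 CPM), with the cold libraries higher, and was too low to test. Only Nkg7 was tested, at 23.2, 112, 24.9 and 70.2 CPM, where the groups overlapped (−0.25, SE 0.61, adjusted p 0.938, edgeR). It did not pass, where 0.61% of 2460 genes in the class did, its unadjusted p was also above 0.05, and DESeq2 made no call. Of the 101 cells in one CD4 cluster 96 came from cold 1, and of the 78 in another 62 did.

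In regulatory T-like cells, which hold other T cells in check, 2 members were tested and 1 passed, where 1.52% of 3738 genes did. Nkg7 was at 63.0, 297, 31.9 and 60.7 CPM, from 18, 81, 6 and 31 UMIs. It rose by 1.83 (SE 0.31, adjusted p 3.62e-06, edgeR), but cold 1 and room temperature 2 were close together and cold 2 stood apart. Without cold 2 the change was 0.39 (adjusted p 0.90), and it was not called by DESeq2 (1.96, adjusted p 1.0), with doublets kept (1.16, adjusted p 0.17) or with finer clusters (1.17, adjusted p 0.77). In cold 2, 2 cells held 30 of the 81 UMIs. The share of cells with an Nkg7 UMI was 16.0%, 29.4%, 6.67% and 14.8%, and 6.52%, 21.7%, 4.88% and 3.8% thinned. Of the 136 Nkg7 UMIs 118 lay in the larger of 2 regulatory clusters, led by Tnfrsf4 and Lrrc32.

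Gzmb in regulatory T-like cells lay in the other cluster, of 86 cells led by Il1rl1, the receptor for interleukin-33, with Klrg1, both known from regulatory T cells resident in tissues. That cluster held 94 of the 95 Gzmb UMIs. The level in the class was 80.4, 11.0, 5.32 and 133 CPM, with 1 high and 1 low library in each group. The SE of the fit, which draws on other genes, does not show this spread. The change was −0.91 (SE 0.35, adjusted p 0.23, edgeR), and leaving out single libraries moved it from −2.98 (without cold 1, adjusted p 0.0009) to 3.07 (without room temperature 2, adjusted p 0.37). It was also called without room temperature 1 (−1.44, adjusted p 0.0092). In cold 1, 1 cell held 20 of the 23 UMIs. Ifng gave 6, 2, 0 and 5 UMIs, a ratio of 2.00 with an exact 95% interval of 0.578 to 7.78 for counting error, and Gzmk and Gzmm gave 0. With doublets kept, Ifng had enough counts to be tested and was called higher in the cold (4.10, adjusted p 3.5e-05, edgeR).

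**Figure D5:**
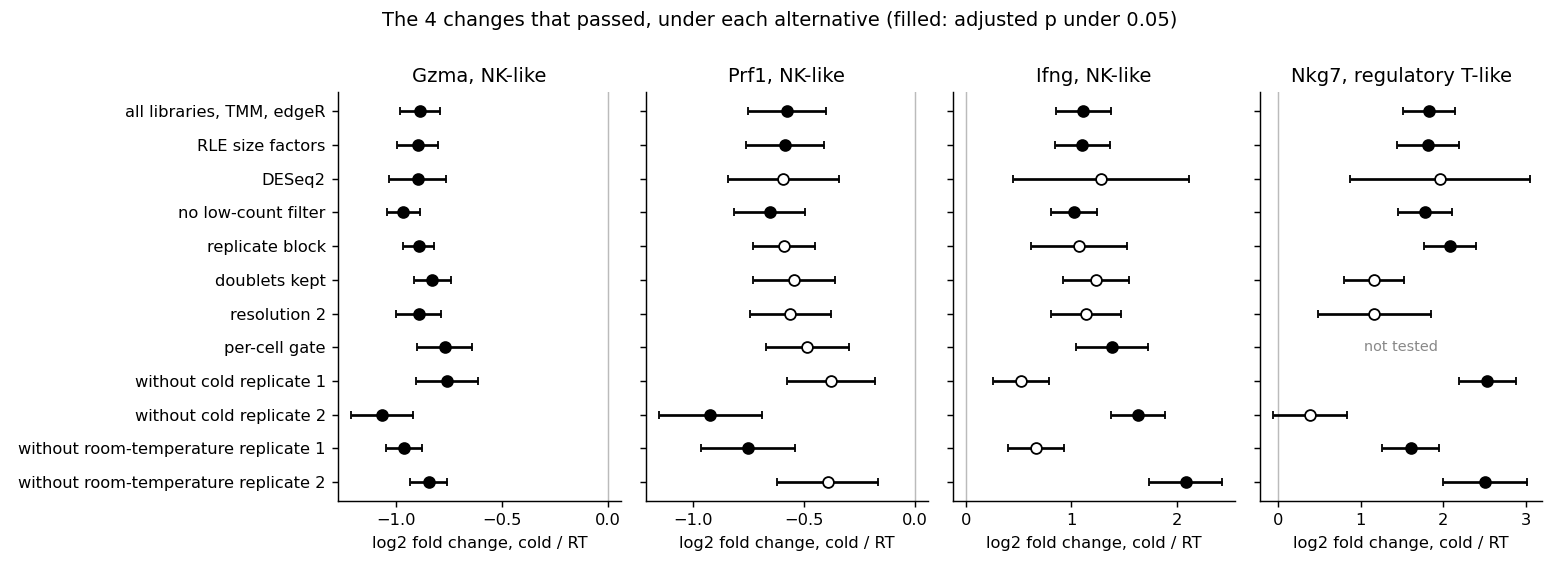
The 4 changes that passed, Gzma, Prf1 and Ifng in NK-like cells and Nkg7 in regulatory T-like cells, as log2 fold change ± SE from cold against room temperature under each setting; filled points have an adjusted p under 0.05. Gzma is filled in each row, while the other 3 lose the call in some rows, Nkg7 when cold 2 is left out.

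The difference in cold effect between NK-like and CD8 T-like cells was tested with the library as a block. Of 9 members tested 0 passed in edgeR, where 0.115% of 7826 genes did, and DESeq2 was not run on it. At an unadjusted p under 0.05, as for 468 of the 7826 genes, there were 4 members. These were Prf1 (−1.10, SE 0.28, adjusted p 0.13), Crtam (2.77, SE 0.75, adjusted p 0.18), Tbx21 (1.06, SE 0.41, adjusted p 0.70) and Gzma (−0.58, SE 0.23, adjusted p 0.74). A minus sign means a lower cold effect in NK-like cells. With doublets kept, Prf1 was called (−1.18, adjusted p 0.041), and with the gate on single cells the sign for Gzma turned (1.05, adjusted p 0.80). With 1 library left out, calls were made for Crtam (3.41, adjusted p 0.021) and Gzma (−1.16, adjusted p 0.048) without cold 1, for Gzma without room temperature 2 (−0.68, adjusted p 0.024) and for Prf1 without room temperature 1 (−1.48, adjusted p 0.016). For Ifng the difference was 0.12 (SE 0.47, adjusted p 1.0, edgeR).

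Over all cells of a library, where fewer cells of a type and less RNA per cell cannot be told apart, 10 members were tested and 0 passed in edgeR, with 0.0% of 16046 genes called. At an unadjusted p under 0.05 there were 2 members (Crtam and Gzmk) and 3729 genes, and DESeq2 called 1 member and 1400 genes. Gzma was at 19.4, 57.0, 52.9 and 150 CPM, and the groups overlapped (−1.42, SE 0.71, adjusted p 0.308). Crtam was at 3.54, 3.26, 0.966 and 1.51 CPM, higher in the cold (1.47, SE 0.29, adjusted p 0.114 with edgeR, 0.0080 with DESeq2). Gzmk gave 22, 35, 4 and 6 UMIs, also higher in the cold (2.51, SE 0.65, adjusted p 0.145, edgeR). Ifng was at 5.10, 8.06, 1.22 and 4.70 CPM, with the cold libraries higher (1.17, adjusted p 0.358, edgeR).

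Other genes of the granule system moved in both directions in NK-like cells. Of 22 genes of granule content and release 15 were tested, of which 1 rose and 2 fell, with a median change of −0.16 against 0.01 over all genes tested. Serpinb9, the inhibitor that shields a killer cell from its own granzyme B, fell from 664 and 1045 CPM at room temperature to 454 and 468 CPM (−0.86, adjusted p 0.00101). Gzmc, a further granzyme, was at 16.4, 109, 330 and 115 CPM (−1.42, adjusted p 0.01). Rab27a, a GTPase for docking of granules, was at 54.7, 84.3, 46.0 and 10.4 CPM and rose (1.69, adjusted p 0.0155, edgeR). For Rab27a cold 1 and room temperature 1 were close together, and for Gzmc cold 2 and room temperature 2. DESeq2 called 1 gene of this list in NK-like cells. In CD8 T-like cells Rab27a also rose (1.51, adjusted p 0.00993), as 1 gene up and 2 down of 17 tested in the list. In that class Gzmc was at 0, 1.09, 73.8 and 6.07 CPM. In CD4 T-like cells 0 of 4 genes of the list passed in edgeR (0 at an unadjusted p under 0.05, 0 with DESeq2). In regulatory T-like cells it was 0 of 10 (1 unadjusted, 0 with DESeq2). Over all genes, 284 of 2460 in CD4 and 391 of 3738 in regulatory T-like cells had an unadjusted p under 0.05.

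Of the effector cytokines and chemokines 5 were tested in NK-like cells. Ccl4, a chemokine for monocytes and T cells, rose from 855 and 849 CPM to 1329 and 1596 CPM (0.83, adjusted p 2.18e-05, edgeR), while Ccl5 (−0.39, adjusted p 0.00252) and Tgfb1 (−0.95, adjusted p 0.0106) fell. Among 12 tested genes of cytokine receptors and their signalling 1 was called. This was Ifngr1, a chain of the receptor that receives interferon gamma, which fell (−0.55, adjusted p 0.0347, edgeR). Ifngr1 also fell in CD8 T-like cells, from 327 and 321 CPM to 145 and 158 CPM (−1.14, adjusted p 0.00296), together with Ifngr2 (−1.08), Il21r (−0.74) and Stat5a (−1.33), which were 4 of 15 tested. In CD4 T-like cells Ifngr1 was the 1 gene of 9 called (−1.06, adjusted p 0.0393, edgeR). In regulatory T-like cells 0 of 12 passed in edgeR (2 at an unadjusted p under 0.05, 0 with DESeq2). At that unadjusted threshold there were 391 of all 3738 genes in the class.

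Among factors of effector and memory lymphocytes 4 of 13 rose in NK-like cells and 0 fell. Klf2, a factor of quiescent and circulating lymphocytes, went from 215 and 271 CPM to 487 and 790 CPM (1.45, adjusted p 2.35e-07, edgeR). Lef1 (1.19), Tcf7 (1.01) and Id2 (0.59) were the others. Klf2 also rose in CD8 (1.10) and regulatory (0.96) T-like cells, as did Id3 (1.00 and 2.32), with 2 of 13 genes called in each. Of the activating and inhibitory receptors 0 of 11 tested passed in NK-like cells in edgeR. At an unadjusted p under 0.05 there were 5, beside 607 of all 3995 genes in the class, and DESeq2 called 0. In CD8 T-like cells 1 of 11 rose, the early activation marker Cd69 (1.15).

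Genes that tissue dissociation and stress are known to induce moved in the same cells. Of 15 such genes 7 rose in NK-like, 3 in CD8, 4 in CD4 and 5 in regulatory T-like cells, and 0 fell in any of them. In NK-like cells these included Jun (2.07), Dusp1 (1.19) and the near-identical heat shock genes Hspa1a (3.61) and Hspa1b (3.06), between which the split of reads is uncertain. Of the glucocorticoid-induced genes 4 of 9 rose in NK-like cells. Il7r, the interleukin-7 receptor, went from 34.5 and 52.2 CPM to 257 and 334 CPM (2.76, adjusted p 3.12e-11, edgeR). Fkbp5 (1.20) and Tsc22d3 (0.86) also rose, and so did Dusp1, which stands in both lists and is counted in each. In CD8 T-like cells Fkbp5 (1.26), Il7r (0.85) and Ddit4 (2.35) rose and Per1 fell (−1.29). Over all lists, DESeq2 also called 8 of the 18 genes that the naming rule picked in NK-like cells, 13 of 17 in CD8, 1 of 9 in CD4 and 0 of 8 in regulatory T-like cells. Without room temperature 2, edgeR still called 5 of the 17 in CD8, 0 of the 9 in CD4 and 1 of the 8 in regulatory T-like cells. The part of these stress genes in the changes of Gzma, Prf1 and Ifng was not tested.

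The genes most like each member over the 17 named classes were found by Pearson's r of log2(CPM + 5), given as a description since the classes share their libraries. Gzma was most like the NK receptors Klre1 (r = 0.994), Klrc1 (0.991) and Klrc2 (0.990). Eomes was most like Samd3 (0.996) and the NK receptor Klra7 (0.994), and Tbx21 like Xcl1 (0.979), a chemokine of NK and CD8 T cells, and Gzmc (0.977). Prf1 was most like Gzmc (0.967), and Ifng like Baiap3 (0.980) and Gzmc (0.975). Nkg7 was most like Ctsw (0.954), a protease of cytotoxic granules, and Gzmb like Klrg1 (0.940), a receptor of mature effector cells. The 17 classes include the group 2 innate lymphoid-like cells, where Klrg1 is a leading gene. All Gzmb UMIs of that class came from a single cell of room temperature 2. The part of that cell in the r of Gzmb was not tested. Gzmm had the weakest likeness, with a highest r of 0.777. Klre1 and Klra7 are among the markers that named the NK-like class.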

How the data were processed

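Single-cell 3′ RNA libraries (10x Chromium v3) of 4 samples were read as the sparse matrices the authors deposited, which hold raw UMI counts per gene and cell. Per the submitters' processing notes they were made with Cell Ranger 3.0.2, with Seurat also named, on mm10/GRCm38. The counts are whole numbers with no normalization. Barcodes with fewer than 500 genes or 15% or more mitochondrial UMIs were dropped, and then the cells that scored highest as doublets, at a rate of 0.8% per 1000 cells.

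Cells were clustered (2000 variable genes without the 10 members, 15 neighbours, leidenalg 0.10.2, resolution 1) and named from fixed marker lists. Naming thresholds and the repeat clustering of lymphoid and CD4 cells were set after seeing the data. UMIs were summed per library and class and tested with edgeR 4.0.16 (TMM, filterByExpr, glmQLFit and glmQLFTest, two-sided, Benjamini-Hochberg over all genes tested, threshold 0.05), cold against room temperature. Classes with fewer than 20 cells in any library were not tested. The SE is the absolute log2 change divided by the square root of the F statistic, from a fit that shares its estimate of spread between genes. CPM are counts per 1000000 UMIs of the class. The genes of the text are the 10 members and, from each list and class, up to 4 called genes with the largest change, at least 20 CPM and groups that do not overlap. For like patterns the 3 genes of highest correlation were taken per member. Other settings were DESeq2 1.42.0, RLE size factors, no low-count filter, a replicate block, doublets kept, resolution 2, a gate on single cells by marker UMIs, each library left out, and 4 subsets of the CD8 clusters chosen after seeing the data. The scripts were tested on simulated counts. The members and lists were chosen with earlier results of these data known. Intervals and limits from counts cover counting error only. Sequences are from RefSeq, GRCm38.p6.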

Additional observations from a re-analysis of the deposited data

Results flagged for a closer look

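For 3 results RNA of a member was found, at a higher level in the cold libraries, in lymphocytes that belong to none of the 4 tested classes. Gzmk in a cluster of dividing lymphocytes had a mean of 10.1 CPM in the cold libraries against 1.94 CPM at room temperature, from 10, 17, 0 and 3 UMIs. The 0 UMIs of room temperature 1 allow up to 10.3 CPM by counting error alone, which is about the cold mean. Ifng in the same dividing cells had a mean of 43.4 against 3.89 CPM, from 51, 65, 0 and 6 UMIs in 41, 57, 18 and 45 cells. Room temperature 1 held fewer than 20 of these cells, so neither difference was tested. Ifng in the lymphoid clusters that could not be named had a mean of 172 CPM in the cold against 32.6 CPM, from 27, 66, 9 and 2 UMIs, and was not tested. Of those 104 UMIs 77 lay in a cluster of 97 cells led by Pdcd1, a receptor that restrains T cells, and Tox2, with 16, 60, 0 and 1 UMIs. The share of unnamed cells with an Ifng UMI was 14.0%, 13.1%, 13.2% and 5.41%, so room temperature 1 lay between the cold libraries. At the thinned depth both cold shares were higher, but room temperature 1 was close (9.68% against 10.9% in cold 1). Unnamed cells with Ifng held a mean of 3.38 and 8.25 UMIs in the cold, against 1.8 and 1 at room temperature.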

How the results depend on the processing

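In NK-like cells the fall of Gzma kept its direction and its call under the 11 alternatives run, between −1.07 and −0.76. Prf1 and Ifng kept their direction under the same 11. Of the 3 members called there, 1 was called with DESeq2, 1 with clusters at resolution 2 and 1 with the replicate block. Same-numbered libraries did not deviate together (r of 0.0552 in NK-like, −0.0173 in CD8, 0.0272 in CD4 and 0.0455 in regulatory T-like cells), so the numbers are not taken to pair them. The block changed the number of genes called from 143 to 16 in NK-like and from 15 to 42 in CD4 T-like cells, and with it Ifng was at 1.07 (adjusted p 0.33) and Prf1 at −0.59 (adjusted p 0.12) in NK-like cells, Nkg7 at 0.45 in CD4 T-like cells and Gzmm at 0.018 over all cells.

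The number of all genes called in NK-like cells was 22 with DESeq2, 58 with doublets kept, 85 at resolution 2 and 60 with the gate on single cells, and 54 to 161 with 1 library left out. In CD8 T-like cells it was 190, then 115 with DESeq2, 606 with no low-count filter, 375 with doublets kept, 54 in memory-type clusters, 349 without the interferon-led cluster and 34 to 555 with 1 library left out. In CD4 T-like cells it was 1 with DESeq2, 9 at resolution 2 and 0 to 53 with 1 library left out. In regulatory T-like cells it was 57, then 1 with DESeq2, 1 at resolution 2, 23 with no filter, 8 with the gate and 15 to 38 with 1 library left out. Over all cells it was 0, then 1400 with DESeq2, 473 with no filter and 0 to 513 with 1 library left out. For the difference between NK-like and CD8 T-like cells it was 9, then 2 at resolution 2 and 10 to 16 with 1 library left out.

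Of the members in CD8 T-like cells 1 was called with no filter, 1 at resolution 2 and 0 to 4 with 1 library left out, where the lone library of a group is assumed to vary like the others. In regulatory T-like cells the count of 1 became 0 with DESeq2 and at resolution 2. It was also 0 with the gate, where Nkg7 was not tested. Over all cells DESeq2 called 1, Crtam. For the difference between NK-like and CD8 T-like cells 1 member was called with doublets kept, Prf1, and 0 to 2 with 1 library left out.

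Members that changed sign were not called in edgeR with all libraries. In NK-like cells Gzmb was at 0.068 with doublets kept and at −0.16 to 0.10 with 1 library left out, and Nkg7 at 0.032 with the gate and at −0.15 to 0.070. In CD8 T-like cells Eomes was at 0.022 with DESeq2, 0.067 at resolution 2, 0.41 in memory-type clusters and 0.058 in those without the interferon-led cluster. Gzmb there was at 0.77 with doublets kept and at 0.088 and 0.37 in the same 2 subsets, and Tbx21 at 0.12 with the gate. Without the interferon-led cluster, memory-type Gzma was at 0.12 and Gzmm at 0.025. With 1 library left out, CD8 values ranged from −1.24 to 0.34 for Gzma, −1.49 to 0.31 for Gzmm, −0.070 to 0.56 for Crtam, −1.13 to 0.68 for Eomes and −0.52 to 0.14 for Gzmb. Nkg7 in CD4 T-like cells was at 0.43 with DESeq2, 0.68 at resolution 2 and −1.06 to 1.13 with 1 library left out, and Gzmb in regulatory T-like cells at −2.98 to 3.07.

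Over all cells Gzmm was at 0.041 with doublets kept, and with 1 library left out the ranges were −0.50 to 0.64 for Gzmm, −1.23 to 0.72 for Eomes, −0.39 to 0.91 for Nkg7, −0.27 to 1.00 for Tbx21, −1.61 to 0.37 for Gzmb and −1.02 to 0.55 for Prf1. For the difference between NK-like and CD8 T-like cells Gzmb was at −0.78 with doublets kept, Ifng at −0.32 at resolution 2, and with the gate Gzma was at 1.05 and Gzmm at 0.71. With 1 library left out that difference ranged from −0.27 to 0.44 for Gzmb, −0.73 to 1.33 for Ifng, −1.16 to 0.092 for Gzma, −1.27 to 1.28 for Gzmm, −1.12 to 0.55 for Eomes and −0.39 to 0.0020 for Nkg7. The cause of these differences was not tested.

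The 2 libraries per group and the 38 NK-like cells of cold 1 limit the precision. Tests with doublets kept could not be run in CD4 T-like cells, which then had fewer than 20 cells in a library. Gzmk and Gzmm in NK-like cells, and most members in CD4 and regulatory T-like cells, had too few UMIs for the test, so small differences there were not detectable at this depth. Crtam in NK-like cells was tested only where the filter let it in.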

Other observations

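Gzmb was also found in cells outside the T and NK classes. Group 2 innate lymphoid-like cells, a class of 49 cells, held 9.87% of all Gzmb UMIs, and all 235 of these UMIs came from 1 cell of room temperature 2, where the class had 8 cells. A cluster of 16 cells that carried both NK and B cell markers was led by Gzma and was left out of every class.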
